A study of Mus musculus with 7 samples.

Results

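Aerocytes are the Car4-high capillary endothelial cells of the lung, called aCap here, and 636 of 50955 kept barcodes were taken as such from single-cell RNA sequencing of mouse lung. A kept barcode had at least 600 unique molecular identifiers (UMIs, each standing for 1 captured mRNA molecule), at least 300 genes and at most 20% mitochondrial UMIs. An aCap barcode had at least 2 UMIs of the endothelial genes Cdh5, Pecam1 and Cldn5 together, at least 2 of the aCap genes Ednrb, Fibin, Apln and Tbx2 together, and at least 2 of Car4. It had at most 2 UMIs of Gpihbp1, a gene of the other capillary type, at most 1 of the leukocyte gene Ptprc, and none of the arterial genes Gja5 and Bmx or the lymphatic genes Mmrn1 and Prox1. These 14 genes chose the cells, so their levels are given as a description and were not tested.

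The groups were 4 Smad4iko mice (Smad4fl/fl;Rosa26-creERT2) and 3 Cre-negative Smad4fl/fl littermates, with 1 library per mouse. All 7 mice carried the floxed Smad4 allele. Tamoxifen, 75 mg/kg, was injected 5 times over postnatal days 21 to 26 in every mouse, controls included, and the lung periphery was collected when the mice were 8 weeks old. The Cre was placed at the Rosa26 locus, which is active in most cell types, so the deletion was not aimed at the endothelium. Carrying creERT2 and losing Smad4 cannot be told apart in this design.

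The alveolar capillary bed holds a pair of endothelial cell types. Aerocytes are large and thin, lie against the gas exchange surface and carry Car4, a carbonic anhydrase on the cell surface that handles carbon dioxide, whereas general capillary cells (gCap) carry Gpihbp1 and Plvap and can divide and give rise to new capillary cells. Aerocytes depend on vascular endothelial growth factor through its receptor Kdr, and Smad4 is the shared partner of the receptor-activated Smads through which TGF-beta and bone morphogenetic proteins (BMP) act on endothelial genes.

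The defining markers were present. Levels are CPM, a gene's UMIs summed over the barcodes of a library and scaled to 1000000 UMIs. Car4 averaged 2984 ± 623 CPM in aCap barcodes and 54.3 ± 11.8 CPM in 1180 gCap barcodes gated on at least 3 Gpihbp1 UMIs (SD, n = 7 libraries each). Ednrb, the endothelin B receptor, averaged 1778 ± 367 CPM in aCap barcodes and 5.94 ± 4.01 CPM in gCap barcodes. Apln, the secreted ligand apelin, averaged 459 ± 77.2 CPM in aCap barcodes and 4.53 ± 3.27 CPM in gCap barcodes. All 4 of Ednrb, Fibin, Apln and Tbx2 had a UMI in 400 of the 636 barcodes (62.9%), 3 of them in 174, 2 in 51 and 1 in 11. Single aCap barcodes held 2 to 58 Car4 UMIs with a median of 13.5, and 606 to 24654 UMIs in all with a median of 4808.5.

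Genes outside the gate followed the same division, described without a test because the cells were chosen from the same counts. Emp2, a membrane protein of thin alveolar cells, averaged 5616 ± 1145 CPM in aCap barcodes and 135 ± 94.9 CPM in gCap barcodes. Kdr averaged 3107 ± 491 CPM in aCap barcodes and 318 ± 80.7 CPM in gCap barcodes, and Kitl, the ligand of the Kit receptor, 2742 ± 331 CPM in aCap barcodes and 330 ± 88.8 CPM in gCap barcodes. Chst1, a carbohydrate sulfotransferase, averaged 303 ± 87.9 CPM in aCap barcodes and 1.33 ± 0.994 CPM in gCap barcodes. Kit itself was on the gCap side, with 9.70 ± 11.1 CPM in aCap barcodes and 625 ± 95.1 CPM in gCap barcodes. Of 16 listed aCap genes outside the gate, Hpgd, Nckap5 and Ptprr were higher in aCap than in gCap barcodes in 0 of 7 libraries. Hpgd, which breaks down prostaglandins, averaged 2506 ± 295 CPM in aCap barcodes and 4443 ± 914 CPM in gCap barcodes, and Sostdc1 had no UMI in either. The proliferation genes Mki67 and Top2a each had a UMI in 2 of the 636 barcodes.

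**Figure D1:**
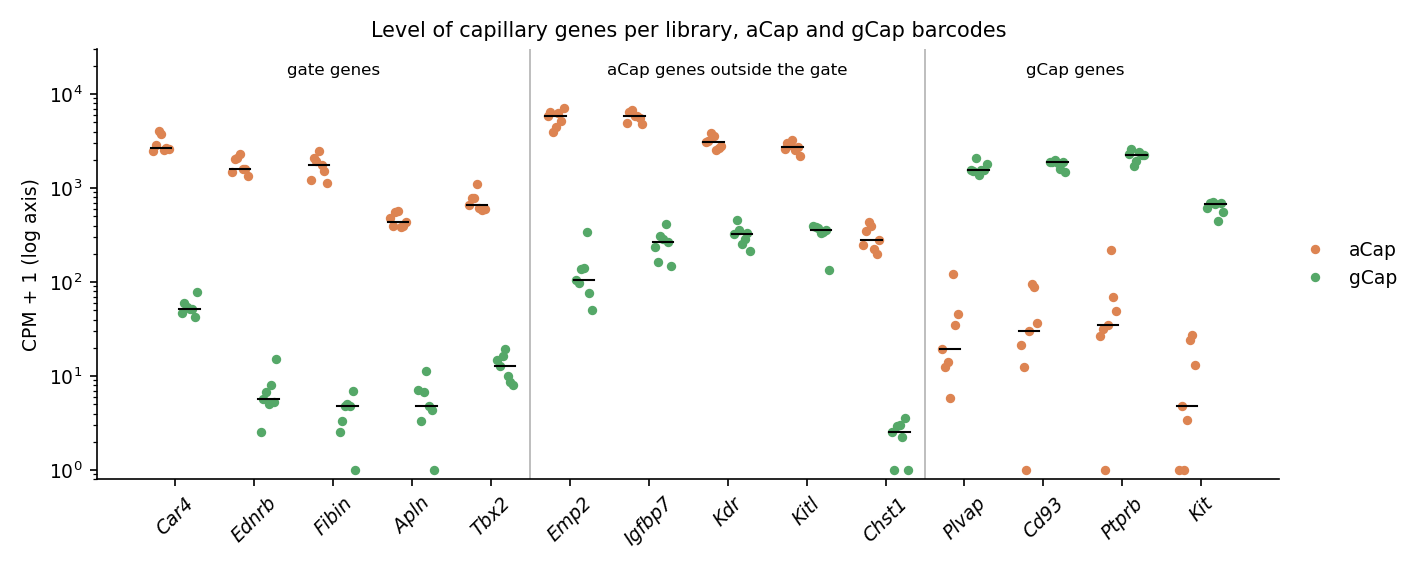
Level of capillary genes in aCap and gCap barcodes, as CPM + 1 on a log axis; each point is 1 of 7 libraries and each black line the median over libraries. The gate genes, left, and Emp2 to Chst1, middle, were higher in aCap barcodes, and Plvap, Cd93, Ptprb and Kit, right, were higher in gCap barcodes.

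The libraries held 46449235 to 66557262 UMIs, and aCap barcodes together 228028 to 1338411 UMIs per library. Smad4iko 3 and Smad4fl/fl 3 were female by Xist and Ddx3y, and the other 5 libraries male. On the first principal component of aCap log2 CPM, which held 35.6% of the variance, Smad4iko 3 and Smad4iko 4 lay at 33.4 and 18.1, Smad4iko 2 at 6.05, and Smad4iko 1 and the 3 Smad4fl/fl libraries between -16.3 and -13.4. Values from Smad4iko 1 and 2 alone are given beside Hebp1 and the chaperone, immediate early, haem and iron, Notch, interferon and MHC lists. No barcode sequence was an aCap barcode in more than 1 library, though 8 were also deposited in another library. Whether the 7 mice were processed on different days is not given in the sources used here.

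The gate had a sharp edge at Gpihbp1. A further 639 barcodes met every other rule and missed on Gpihbp1 alone, 163 in Smad4iko and 476 in Smad4fl/fl libraries, of which 377 were in Smad4fl/fl 1. They held genes of both capillary types. Emp2 averaged 2064 ± 660 CPM in them, 5616 ± 1145 CPM in aCap barcodes and 135 ± 94.9 CPM in gCap barcodes, while Plvap, the diaphragm protein of capillary fenestrae and caveolae, averaged 1091 ± 99.3 CPM in them, 35.2 ± 39.7 CPM in aCap barcodes and 1638 ± 229.8 CPM in gCap barcodes. Their Gpihbp1 count was 3 in only 26 of the 639. On the Car4 side 106 barcodes met every other rule and missed on Car4 alone, 42 of them at 1 UMI and 64 at 0. Just inside that edge lay 28 aCap barcodes at 2 UMIs.

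The share of aerocytes overlapped between the genotypes. The aCap share of endothelial barcodes was 21.4%, 21.1%, 19.1% and 21.3% in Smad4iko 1 to 4, against 9.71%, 9.13% and 30.6% in Smad4fl/fl 1 to 3. The 4 Smad4iko shares lay close together, whereas the Smad4fl/fl shares lay on both sides of them. The exact 95% binomial interval was 15.1% to 23.6% in Smad4iko 3 and 23.9% to 37.8% in Smad4fl/fl 3, which covers counting error only. The group means were 20.7% ± 1.09 (SD, n = 4) in Smad4iko and 16.5% ± 12.2 (SD, n = 3) in Smad4fl/fl, a difference of 4.24 percentage points with p = 0.343 in a two-sided exact permutation test over 35 splits, whose smallest p is 0.0286. Without Smad4fl/fl 3 the difference was 11.3 percentage points, without Smad4fl/fl 2 it was 0.567 and without Smad4fl/fl 1 it was 0.859.

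The aCap share of kept barcodes was 1.55%, 0.786%, 0.785% and 1.29% in Smad4iko 1 to 4 and 2.79%, 0.668% and 0.764% in Smad4fl/fl 1 to 3. The mean was 1.10% ± 0.381 (SD, n = 4) in Smad4iko and 1.41% ± 1.20 (SD, n = 3) in Smad4fl/fl, with p = 0.886 in the same exact permutation test. Without Smad4fl/fl 1, Smad4iko was higher by 0.387 percentage points. Among kept barcodes with no Ptprc UMI, which leaves out most leukocytes and was added after seeing the data, the share was 10.8%, 6.40%, 6.16% and 11.1% in Smad4iko 1 to 4 and 5.49%, 4.55% and 10.97% in Smad4fl/fl 1 to 3, with Smad4iko higher by 1.63 percentage points on average and p = 0.486 in the exact permutation test. The aCap share of capillary barcodes, which are aCap and gCap together, was 46.5% ± 6.19 (SD, n = 4) in Smad4iko and 38.2% ± 24.4 (SD, n = 3) in Smad4fl/fl, with p = 0.514 in the exact permutation test. Without Smad4fl/fl 3 that difference was 22.3 percentage points, without Smad4fl/fl 1 it was 2.28 and without Smad4fl/fl 2 it was 0.245, against 8.28 with all libraries. With the Gpihbp1 limit left off, aCap made up 26.3% to 34.0% of endothelial barcodes in Smad4iko and 24.3% to 41.1% in Smad4fl/fl, and the groups again overlapped.

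Aerocyte barcodes were shallower in Smad4iko. The median UMI count per aCap barcode was 3918, 4513, 3305 and 4704.5 in Smad4iko 1 to 4, against 5423, 5599 and 5999 in Smad4fl/fl 1 to 3. Every Smad4iko library lay below every Smad4fl/fl library. The median number of genes was likewise 1757 to 2260 in Smad4iko and 2407 to 2497 in Smad4fl/fl. Depth over all kept barcodes overlapped, at 4748 to 6241.5 median UMIs in Smad4iko and 4518 to 6452 in Smad4fl/fl, and gCap barcodes overlapped too, at 4503.5 to 6551 in Smad4iko and 5182.5 to 5703 in Smad4fl/fl. With the Gpihbp1 limit left off, aCap medians were 3706 to 7538 in Smad4iko and 8208 to 11810 in Smad4fl/fl, still apart. Because the gate itself counts UMIs, depth was not tested, and it was singled out after its values were seen.

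**Figure D2:**
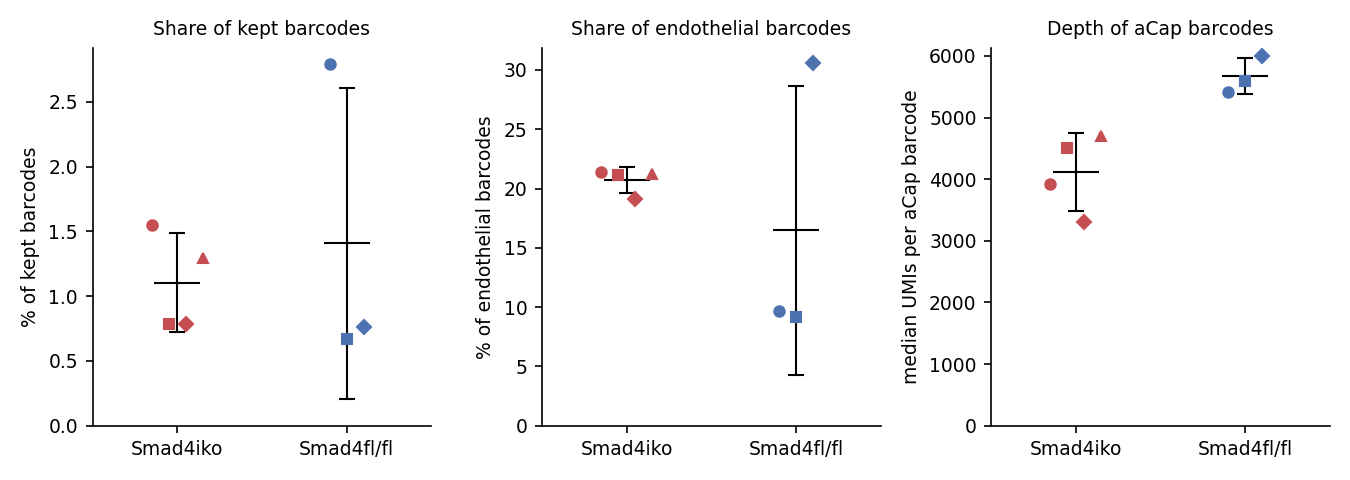
Share of aCap barcodes among kept barcodes (%) and among endothelial barcodes (%), and median UMIs per aCap barcode, with 1 point per library (circle, square, diamond and triangle for replicates 1 to 4), the group mean and SD. The shares overlapped, while the median depth was 3305 to 4704.5 UMIs in Smad4iko and 5423 to 5999 UMIs in Smad4fl/fl.

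Smad4 in aCap barcodes was 64.9, 72.6, 48.2 and 68.6 CPM in Smad4iko 1 to 4, against 74.0, 60.4 and 81.3 CPM in Smad4fl/fl 1 to 3. The groups overlapped, and the log2 difference was -0.21 ± 0.22 (SE) with an adjusted p of 0.791 in edgeR. In gCap barcodes the groups did not overlap, at 56.4 to 81.9 CPM in Smad4iko and 87.0 to 135 CPM in Smad4fl/fl. The gCap log2 difference was -0.59 ± 0.20 (SE) with an adjusted p of 0.966 in edgeR. In all kept barcodes outside aCap, gCap included, Smad4 was 53.3 ± 8.20 CPM in Smad4iko (SD, n = 4) and 84.1 ± 4.72 CPM in Smad4fl/fl (SD, n = 3). The groups did not overlap there either. The libraries read the 3' end of transcripts and the labels do not say which part of Smad4 (ENSMUSG00000024515, mm10 chromosome 18, 73639009 to 73703780, minus strand) was floxed, so these levels do not check the deletion.

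Across the genome, 1 gene passed the genotype test in aCap barcodes, Hebp1, and it fell in Smad4iko. UMIs were summed per library and tested with edgeR's quasi-likelihood test over 5543 genes outside the gate, and 0.018% of them passed a Benjamini-Hochberg adjusted p of 0.05. At an unadjusted p of 0.05 there were 502 genes (9.06%), 222 higher (4.01%) and 280 lower (5.05%) in Smad4iko, and the median log2 difference over all genes was -0.0060. DESeq2 called 4 genes (0.0269% of those it tested), namely Hebp1, Dnaja1, Rad51ap1 and Hbb-bs. With a covariate for Smad4iko 3 and 4 edgeR called 2 genes (0.0361%). Leaving out Smad4iko 1 gave 32 calls (0.636%) and leaving out Smad4iko 2 gave 5.

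Hebp1 encodes haem-binding protein 1, a small intracellular haem carrier. It was at 5.56, 19.1, 8.77 and 2.45 CPM in aCap barcodes of Smad4iko 1 to 4, against 97.1, 192 and 126 CPM in Smad4fl/fl 1 to 3. The means were 8.97 ± 7.23 CPM (SD, n = 4) in Smad4iko and 139 ± 48.8 CPM (SD, n = 3) in Smad4fl/fl. In UMIs this was 11 over 308 Smad4iko barcodes, against 223 over 328 Smad4fl/fl barcodes. The log2 difference was -4.08 ± 0.43 (SE) with an adjusted p of 0.00135 in edgeR. Over 19 alternatives in which it was tested the log2 difference lay between -4.65 and -3.45 and the gene passed in 17, with adjusted p of 4.23e-29 to 0.151. It missed with the Car4 minimum left off (-3.45, adjusted p = 0.151 in edgeR, 0 calls) and from Smad4iko 1 and 2 alone (-3.65, adjusted p = 0.0590 in edgeR).

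Hebp1 was also seen in fewer barcodes. A Hebp1 UMI was seen in 2.97%, 7.55%, 3.03% and 1.14% of aCap barcodes of Smad4iko 1 to 4, against 42.7%, 60.4% and 49.1% in Smad4fl/fl 1 to 3. In barcodes gated as T cells, at 4767 to 7084 median UMIs, the share was 0.254% to 1.18% in Smad4iko and 0.667% to 2.04% in Smad4fl/fl. In every library the aCap share was above the T cell share. The Smad4iko aCap shares rest on few barcodes, 3 of 101, 4 of 53, 2 of 66 and 1 of 88 in Smad4iko 1 to 4. Whether the Hebp1 UMIs of Smad4iko aCap barcodes are background RNA was not tested. After each barcode was thinned to 2000 UMIs, which left out 53 Smad4iko and 48 Smad4fl/fl aCap barcodes, the shares were 1.41% to 4.26% in Smad4iko and 10.9% to 30.2% in Smad4fl/fl.

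Hebp1 fell in gCap barcodes as well. In gCap barcodes it averaged 8.98 ± 3.09 CPM (SD, n = 4) in Smad4iko and 88.5 ± 26.7 CPM (SD, n = 3) in Smad4fl/fl, a log2 difference of -3.15 ± 0.33 (SE) with an adjusted p of 0.00381 in edgeR, and it was the 1 call (0.0149%) among 6725 genes tested there, of which 321 had an unadjusted p under 0.05 (4.77%). The aCap difference minus the gCap difference was -0.53 ± 0.52 (SE) with an adjusted p of 0.799 in limma, on the log2 CPM scale with a prior count of 2, which draws low levels together, so that it is not the plain difference of the edgeR values. In all kept barcodes outside aCap, gCap included, Hebp1 was at 125, 114, 96.5 and 104 CPM in Smad4iko 1 to 4. It was at 81.4, 121 and 136 CPM there in Smad4fl/fl 1 to 3, and the groups overlapped.

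**Figure D3:**
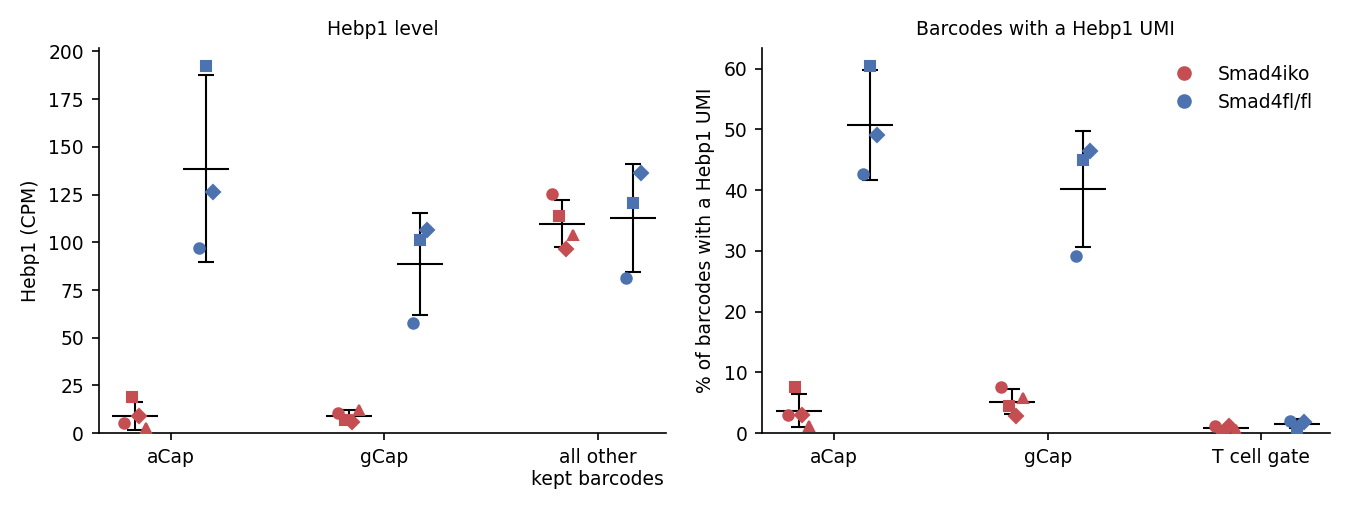
Hebp1 level (CPM) in aCap barcodes, gCap barcodes and all other kept barcodes (all outside aCap, gCap included), left, and the share of barcodes with a Hebp1 UMI (%) in aCap, gCap and T cell barcodes, right, with Smad4iko in red and Smad4fl/fl in blue. Points are libraries with the group mean and SD; in aCap barcodes Smad4iko libraries sat at 2.45 to 19.1 CPM and Smad4fl/fl libraries at 97.1 to 192 CPM.

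Hebp1 (ENSMUSG00000042770) lies on mm10 chromosome 6 from 135137522 to 135198022 on the minus strand and is protein coding. Gt(ROSA)26Sor, the locus that carries creERT2 in Smad4iko, lies on the same chromosome from 113067428 to 113077333. Whether anything at that locus or in its strain background bears on Hebp1 was not tested. The promoter window of Hebp1 in RefSeq (GRCm38.p6, chr6:135168166-135168465, minus strand), from 250 bases before to 50 after the transcript start, is shown because it is the RefSeq start region of the 1 gene called. That window lies inside the span given above, which on the minus strand starts at 135198022, so it is not the start of that span.
Hebp1: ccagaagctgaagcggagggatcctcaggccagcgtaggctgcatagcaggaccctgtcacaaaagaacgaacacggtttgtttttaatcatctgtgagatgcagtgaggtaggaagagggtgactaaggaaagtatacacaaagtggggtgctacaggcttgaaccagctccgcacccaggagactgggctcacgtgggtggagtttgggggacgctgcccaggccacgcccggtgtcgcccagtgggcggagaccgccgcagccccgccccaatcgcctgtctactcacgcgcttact

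Below the threshold, the genes with the smallest p and no overlap between the groups were named by rule, 10 in each direction. Such separation was seen for 515 genes (9.29%), 302 higher (5.45%) and 213 lower (3.84%) in Smad4iko of the 5543 tested. On the higher side, besides globin genes, stood Mettl24, Ttc14, H1f4, Prpf8, Slc12a2, Paqr7, AC149090.1 and Il4ra. Slc12a2, the sodium, potassium and chloride cotransporter Nkcc1, was at 213, 168, 197 and 211 CPM in Smad4iko 1 to 4, against 117, 124 and 114 CPM in Smad4fl/fl 1 to 3. Its log2 difference was 0.70 ± 0.17 (SE) with an adjusted p of 0.276 in edgeR. Il4ra, the receptor chain shared by interleukin 4 and 13, averaged 162 ± 33.2 CPM (SD, n = 4) in Smad4iko and 90.7 ± 2.58 CPM (SD, n = 3) in Smad4fl/fl. Mettl24, a putative methyltransferase, averaged 99.5 ± 23.6 CPM (SD, n = 4) in Smad4iko and 41.8 ± 3.17 CPM (SD, n = 3) in Smad4fl/fl.

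On the lower side, 5 of the 10 were chaperones or their partners, Hspd1, Stip1, Hspb1, Dnaja1 and Ahsa2, and 3 were gCap genes, Plvap, Cd93 and Ptprb. The other two were S100a10, the annexin A2 partner, and Utrn, which encodes utrophin. S100a10 was at 233, 191, 254 and 221 CPM in Smad4iko 1 to 4, against 368, 355 and 343 CPM in Smad4fl/fl 1 to 3, a log2 difference of -0.70 ± 0.16 (SE) with an adjusted p of 0.215 in edgeR.

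Heat shock chaperones as a list had values below those of Smad4fl/fl in nearly every member. Chaperones fold other proteins, and the heat shock factor Hsf1 drives most of them under heat, oxidants or tissue handling. All 14 members were tested: 13 had a log2 difference below 0, against 50.7% of all genes, and the median was -1.02 against -0.0060 over all genes. At an unadjusted p of 0.05 in edgeR there were 10, all below 0, against 5.05% of all genes, and 0 passed the adjusted threshold. In the plain counts, 3 members had no overlap between the groups on the lower side, against 3.84% of all genes.

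Hspb1, the small chaperone Hsp27, was at 1369, 1204, 539 and 762 CPM in Smad4iko 1 to 4, against 3819, 1864 and 2207 CPM in Smad4fl/fl 1 to 3. The groups did not overlap, and the log2 difference was -1.47 ± 0.31 (SE) with an adjusted p of 0.213 in edgeR. Dnaja1, a co-chaperone of Hsp70, was at 908, 508, 403 and 466 CPM in Smad4iko 1 to 4, against 1610, 992 and 1361 CPM in Smad4fl/fl 1 to 3. Every Smad4iko library lay below every Smad4fl/fl library, with a log2 difference of -1.23 ± 0.27 (SE) and an adjusted p of 0.213 in edgeR. Hspd1, the mitochondrial chaperonin Hsp60, was at 137, 99.3, 110 and 113 CPM in Smad4iko 1 to 4, against 254, 185 and 241 CPM in Smad4fl/fl 1 to 3. It too was apart, by -1.02 ± 0.19 (SE) on the log2 scale with an adjusted p of 0.133 in edgeR. Hsp90ab1, the constitutive cytosolic Hsp90, was at 2229, 1471, 881 and 995 CPM in Smad4iko 1 to 4, against 3450, 1826 and 3065 CPM in Smad4fl/fl 1 to 3, so that Smad4iko 1 lay above Smad4fl/fl 2. The stress-induced Hsp70 gene Hspa1a showed values apart in the means but overlapping, at 836, 359, 21.9 and 78.4 CPM in Smad4iko 1 to 4, against 1636, 728 and 723 CPM in Smad4fl/fl 1 to 3, and reads of its near-identical copy Hspa1b cannot be split from it with certainty. The 1 member above 0 was Dnajb4, with a log2 difference of 0.04 ± 0.20 (SE). The other members with an unadjusted p over 0.05 were the endoplasmic reticulum chaperone Hspa5 with -0.26 ± 0.25 (SE), Dnajb1 with -0.73 ± 0.54 (SE) and Hsp90aa1 with -1.12 ± 0.53 (SE).

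The chaperone values moved with other measures. Smad4iko 3 and 4, which stood apart on the first component, were the lowest 2 libraries for the summed list, which was 11001, 6858, 3881 and 5132 CPM in aCap barcodes of Smad4iko 1 to 4, against 18185, 10136 and 12960 CPM in Smad4fl/fl 1 to 3. From Smad4iko 1 and 2 alone the median log2 difference was -0.59, with 12 of 14 members below 0 and 4 at an unadjusted p of 0.05 in edgeR, against 4.64% of all genes in that fit. Without Smad4iko 1 the median was -1.47, 12 members had an unadjusted p under 0.05, against 13.1% of all genes in that fit, and 10 passed the adjusted threshold, against 0.636%. In gCap barcodes all 14 members were also below 0 with a median of -0.54, and the summed list was 3914 to 11824 CPM in Smad4iko and 8124 to 16008 CPM in Smad4fl/fl. In all kept barcodes outside aCap, gCap included, it was 5811 to 7904 CPM in Smad4iko and 6646 to 13063 CPM in Smad4fl/fl. No chaperone passed the test of the aCap difference minus the gCap difference. Of the listed immediate early genes, which tissue digestion can raise, 15 of 17 had a log2 difference below 0 with a median of -0.32, and 1 had an unadjusted p under 0.05 in edgeR. That median turned to 0.058 from Smad4iko 1 and 2 alone and to 0.066 without Smad4fl/fl 1, with 8 of 17 below 0 in both, while the chaperone medians were -0.59 and -0.82 in those settings. Without Smad4iko 1 the immediate early median was -0.72, with 16 of 16 below 0. In that fit 12 had an unadjusted p under 0.05 in edgeR, against 13.1% of all genes. With the Gpihbp1 limit left off the median was -0.42 with 17 of 17 below 0, and in gCap barcodes -0.37 with 15 of 17. The part of immediate early genes in the chaperone values was not tested.

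**Figure D4:**
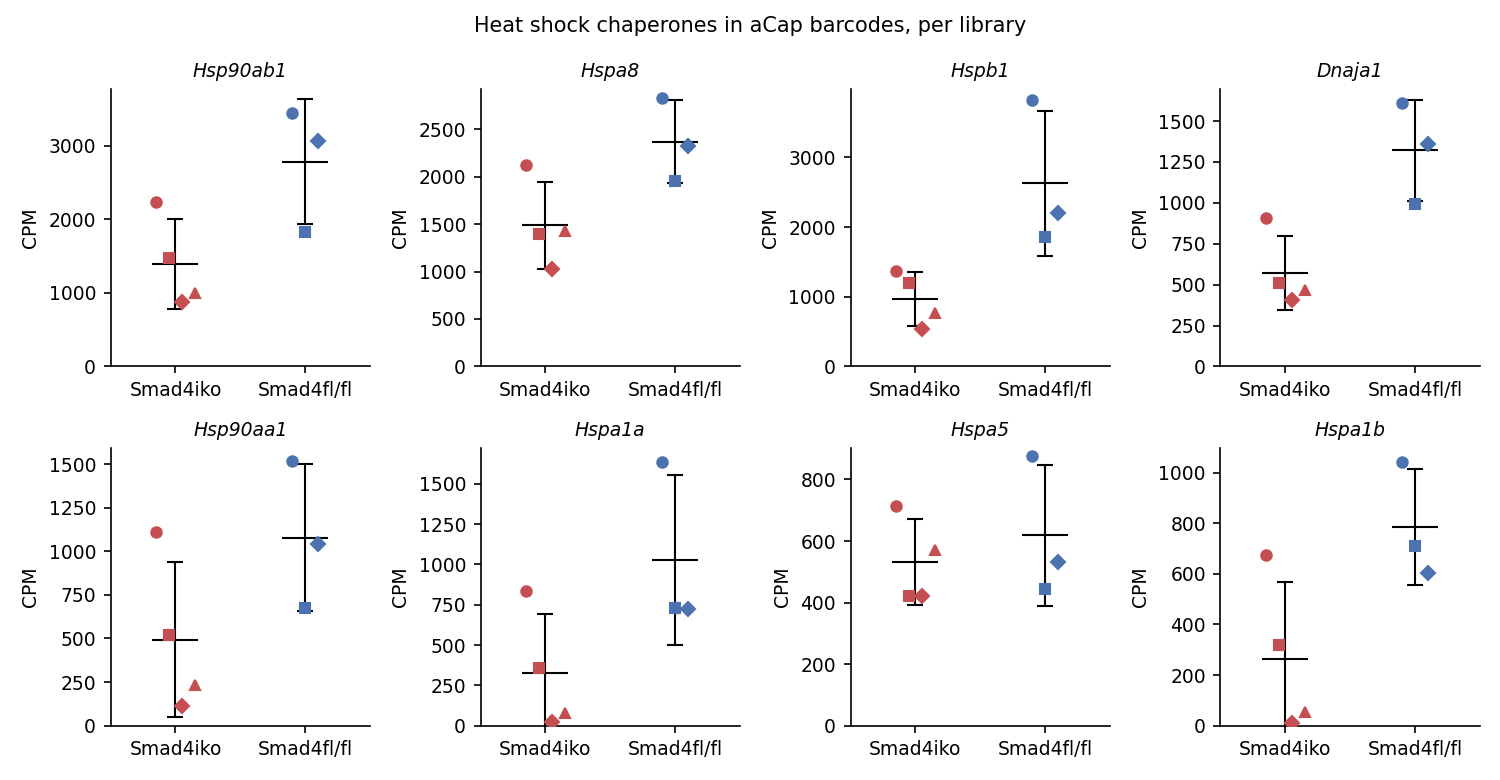
The 8 heat shock chaperones with the highest mean level in aCap barcodes, in CPM, with 1 point per library (circle, square, diamond and triangle for replicates 1 to 4), the group mean and SD. Smad4iko 3 and 4 were among the lowest libraries in most panels; Hspb1 and Dnaja1 had no overlap between the groups.

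Promoters of Hspb1 and Dnaja1, which had no overlap between the groups, and of Hspe1, which shares its start region with Hspd1, are shown with the letters that Hsf1 sites are built from. The windows run from 250 bases before to 50 after the RefSeq transcript start (GRCm38.p6). Capitals mark every match to GAANNTTC or TTCNNGAA, which read the same on both strands and may overlap one another. Such a match was present in 10 of 17 windows of the chaperone list (58.8%), belonging to 9 of the 11 members that have a window, against 15.1% of all 32851 windows and 11.2% of the 5762 windows of genes tested here. Because the list was made of heat shock genes, this share does not bear on the genotype difference. A part of Hsf1 in that difference was not tested. The 3 matches in the Hspe1 window are also those of a Hspd1 window, so they count for each gene. The window of Hebp1 above holds none. The Hspb1 window (chr5:135887669-135887968, plus strand) holds 2 matches. The Hspe1 window (chr1:55087898-55088197, plus strand) holds 3 overlapping ones and shares 285 bases with a window of Hspd1, the neighbour read from the other strand. The 1 Dnaja1 window with a match (chr4:40722218-40722517, plus strand) holds 1.
Hspb1: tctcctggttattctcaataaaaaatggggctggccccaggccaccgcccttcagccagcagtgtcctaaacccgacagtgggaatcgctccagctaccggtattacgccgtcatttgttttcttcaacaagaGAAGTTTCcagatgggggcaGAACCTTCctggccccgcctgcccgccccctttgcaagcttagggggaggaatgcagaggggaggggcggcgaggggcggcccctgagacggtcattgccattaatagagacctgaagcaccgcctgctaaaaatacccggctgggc
Hspe1: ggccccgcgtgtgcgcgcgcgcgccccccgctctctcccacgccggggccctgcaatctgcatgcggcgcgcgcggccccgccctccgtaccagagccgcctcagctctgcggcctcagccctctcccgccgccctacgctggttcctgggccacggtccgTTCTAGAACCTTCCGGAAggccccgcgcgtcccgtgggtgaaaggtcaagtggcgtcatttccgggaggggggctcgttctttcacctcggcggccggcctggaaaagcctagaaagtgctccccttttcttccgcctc
Dnaja1: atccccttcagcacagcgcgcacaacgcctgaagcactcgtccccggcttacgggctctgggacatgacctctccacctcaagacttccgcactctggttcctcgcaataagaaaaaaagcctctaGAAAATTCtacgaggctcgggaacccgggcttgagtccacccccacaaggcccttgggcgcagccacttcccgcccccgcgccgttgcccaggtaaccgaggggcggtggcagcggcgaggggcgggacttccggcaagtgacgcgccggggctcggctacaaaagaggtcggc
Hspe1, the partner of Hspd1 in the mitochondrial chaperonin, averaged 157 ± 62.6 CPM (SD, n = 4) in Smad4iko and 315 ± 90.4 CPM (SD, n = 3) in Smad4fl/fl, and its groups overlapped.

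In the TGF-beta and BMP pathway, in which Smad4 acts, no member passed the test in either direction with all libraries. Without Smad4iko 1, 1 target passed, Ccn2, a secreted matrix protein that fibroblasts also make, at -3.96 ± 0.44 (SE) with an adjusted p of 0.000381 in edgeR, against -0.75 ± 0.77 (SE) with all libraries. Ccn2 was at 250.1, 0, 17.5 and 9.80 CPM in Smad4iko 1 to 4, against 135, 106 and 172 CPM in Smad4fl/fl 1 to 3. Few barcodes carried it: 1 barcode held 60.8%, 82.1% and 96.5% of its UMIs in Smad4fl/fl 1 to 3, and 43.7% in Smad4iko 1. A Ccn2 UMI was seen in 30 of 225, 3 of 48 and 3 of 55 aCap barcodes of Smad4fl/fl 1 to 3, and in 8 of 101 of Smad4iko 1. Of the receptors, 8 were tested and 6 had a log2 difference above 0, with a median of 0.19. Bmpr2, the type II BMP receptor, averaged 1980 ± 113 CPM (SD, n = 4) in Smad4iko and 1739 ± 174 CPM (SD, n = 3) in Smad4fl/fl. Acvrl1, the endothelial receptor Alk1, was at 1566, 1673, 2557 and 1860 CPM in Smad4iko 1 to 4, against 1574, 1532 and 1791 CPM in Smad4fl/fl 1 to 3. Of the Smads, 6 were tested and 4 were above 0, among them the inhibitory Smad6 at 513 ± 153 CPM (SD, n = 4) in Smad4iko and 375 ± 147 CPM (SD, n = 3) in Smad4fl/fl. Of the listed targets, 18 were tested and 12 were above 0, with a median of 0.15 and 1, the transcription factor Sox18, at an unadjusted p of 0.05 in edgeR.

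The classic BMP targets overlapped between the genotypes. Id1 was at 643, 688, 675 and 831 CPM in Smad4iko 1 to 4, against 684, 626 and 720 CPM in Smad4fl/fl 1 to 3, a log2 difference of 0.02 ± 0.15 (SE). Id3 had a log2 difference of -0.15 ± 0.17 (SE), and Tmem100, a target of Alk1 signalling, 0.27 ± 0.20 (SE). Of the ligands, 4 were tested, with Tgfb1 at 191 CPM in Smad4iko and 164 CPM in Smad4fl/fl on average and Gdf15 at a log2 difference of -1.55 ± 0.63 (SE) with an adjusted p of 0.536 in edgeR.

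No gene of the aCap list outside the gate passed the test. Of 14 tested, which include Hpgd and Nckap5 although both were higher in gCap barcodes, 9 had a log2 difference above 0, the median was 0.09 and 0 passed. Kdr was at 3118, 3179, 3859 and 3607 CPM in Smad4iko 1 to 4, against 2543, 2652 and 2788 CPM in Smad4fl/fl 1 to 3. Its groups did not overlap, and the log2 difference of 0.32 ± 0.15 (SE) had an adjusted p of 0.552 in edgeR. Emp2 was at 5898, 6446, 3938 and 4438 CPM in Smad4iko 1 to 4, against 6343, 5164 and 7087 CPM in Smad4fl/fl 1 to 3, with Smad4iko 3 and 4 lowest. Car4 itself, a gate gene and so not tested, was at 2470, 2843, 4004 and 3745 CPM in Smad4iko 1 to 4, against 2558, 2648 and 2619 CPM in Smad4fl/fl 1 to 3.

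Among the lists of function, haem and iron handling held the 1 gene past the threshold, Hebp1. Its 5 tested members all had a log2 difference below 0, against 50.7% of all genes, or 4 of 5 from Smad4iko 1 and 2 alone. In gCap barcodes 4 of its 9 tested members were below 0. In aCap barcodes the ferritin genes Ftl1 and Fth1 of that list had -0.35 ± 0.17 (SE) and -0.61 ± 0.29 (SE), and Slc48a1 had -0.02 ± 0.18 (SE). Among 11 tested genes of caveolae and barrier transport, 5 were above 0 and the median was -0.02; the water channel Aqp1 was at 1214, 1368, 1995 and 1684 CPM in Smad4iko 1 to 4, against 1067, 992 and 1183 CPM in Smad4fl/fl 1 to 3, without overlap and with an adjusted p of 0.512 in edgeR. Among 6 tested genes of haemostasis and vascular tone, 4 were above 0; the anticoagulant thrombomodulin gene Thbd averaged 1737 CPM in Smad4iko and 1181 CPM in Smad4fl/fl, and Ace, the angiotensin-converting enzyme, 1235 CPM in Smad4iko and 799 CPM in Smad4fl/fl, with overlap in both. All 6 tested Notch genes were above 0 with a median of 0.26, against 49.3% of all genes, and 4 of 6 from Smad4iko 1 and 2 alone. Of 11 genes of basement membrane and matrix, 8 were above 0. Of the genes of junctions and adhesion, 8 of 11 were above 0, and of the hypoxia and glycolysis genes 8 of 10, or 4 of 10 with the Gpihbp1 limit left off. Of the endothelial transcription factors 7 of 13 were above 0, and of the cytokine and adhesion genes of leukocyte recruitment 3 of 6.

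No immune gene passed the test with all libraries. All 10 tested interferon-stimulated genes had a log2 difference above 0, against 49.3% of all genes, with a median of 0.43. Among them 1, Ifi27l2a, had an unadjusted p under 0.05 in edgeR, against 9.06% of all genes. Ifi27l2a was at 133, 111, 35.1 and 22.1 CPM in Smad4iko 1 to 4, against 20.2, 18.9 and 33.1 CPM in Smad4fl/fl 1 to 3, so Smad4iko 1 and 2 stood above all others and Smad4iko 3 and 4 did not. From Smad4iko 1 and 2 alone the list's median was 0.78, Ifi27l2a passed the adjusted threshold, and 5 of 10 had an unadjusted p under 0.05, against 0.0178% and 4.64% of all genes in that fit. In gCap barcodes 13 of 13 tested members were above 0 with a median of 0.30, and 1 had an unadjusted p under 0.05 in edgeR. The summed list in all kept barcodes outside aCap, gCap included, was 1452, 2626, 1136 and 1030 CPM in Smad4iko 1 to 4. It was 911, 1075 and 845 CPM there in Smad4fl/fl 1 to 3. Of 12 MHC class I genes 9 were below 0 with a median of -0.29, and 3 (H2-Q4, H2-Q6 and H2-Q7, near-identical paralogs whose reads cannot be split with certainty) had an unadjusted p under 0.05 in edgeR, against 9.06% of all genes. From Smad4iko 1 and 2 alone 6 of the 12 were below 0, the median was -0.0070 and 0 had an unadjusted p under 0.05 in edgeR. The 4 tested MHC class II genes were below 0 with a median of -1.13, and 1, H2-Eb1, had an unadjusted p under 0.05 in edgeR. From Smad4iko 1 and 2 alone the median was -2.01. In that fit all 4 had an unadjusted p under 0.05 in edgeR, against 4.64% of all genes. In gCap barcodes 6 of 6 tested were below 0 with a median of -0.81, and 3 had an unadjusted p under 0.05 in edgeR. In aCap barcodes the 4 genes were highest in Smad4iko 3 and Smad4fl/fl 2, where 1 barcode held 57.7% and 78.6% of the Cd74 UMIs.

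**Figure D5:**
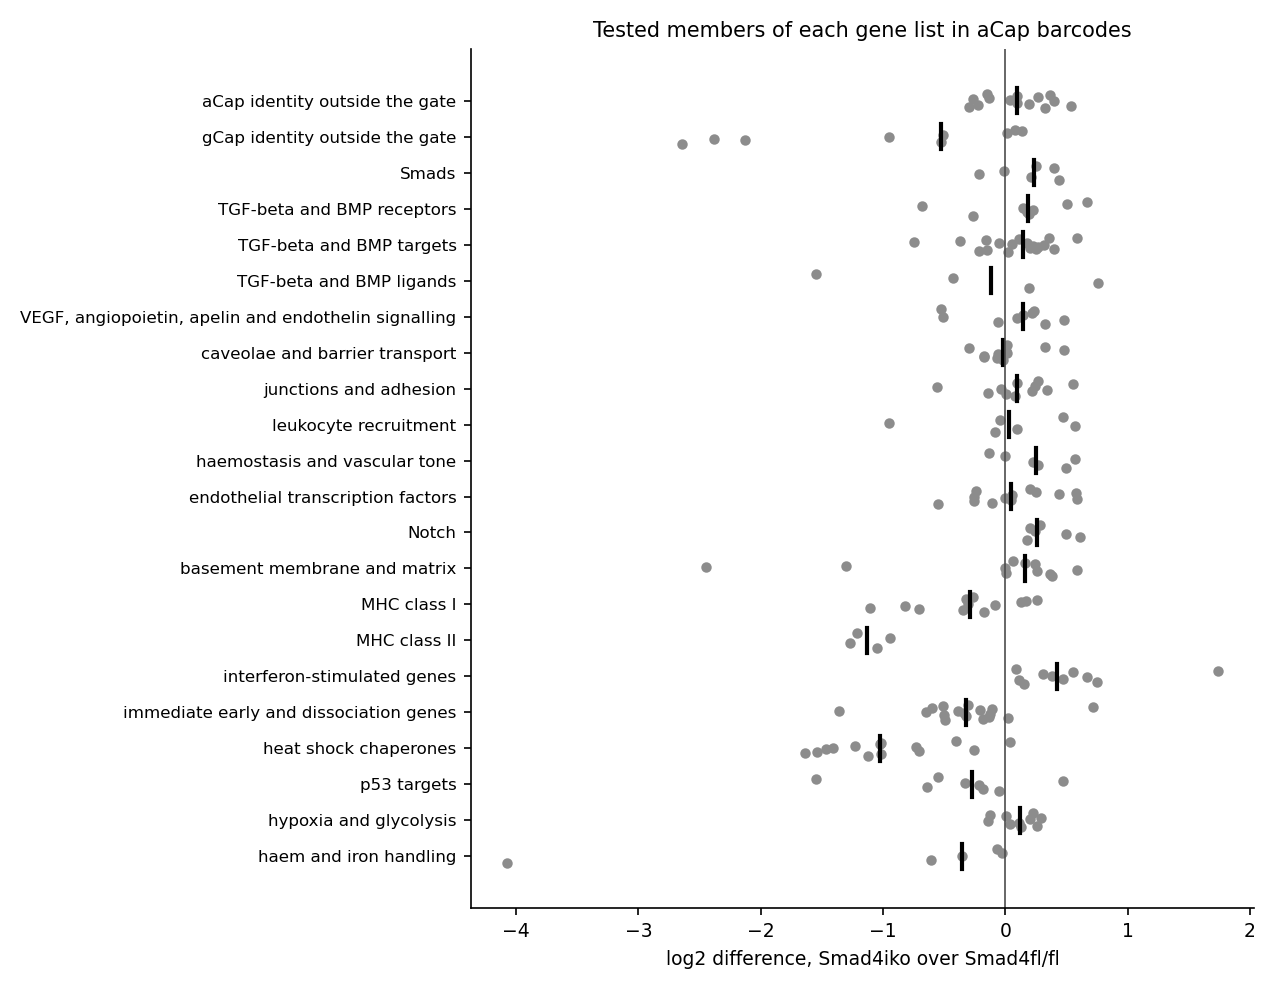
Log2 difference, Smad4iko over Smad4fl/fl, of every tested member of each gene list with at least 4 tested members in aCap barcodes; each point is a gene and each black bar the list's median. Heat shock chaperones had a median of -1.02 and interferon-stimulated genes 0.43, and the lone point near -4 is Hebp1.

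Of the genes of the other capillary type, none passed the threshold with all libraries. Without Smad4iko 1, 1 of 7 tested passed, against 0.636% of all genes in that fit. This was Plvap, at -3.16 ± 0.59 (SE) with an adjusted p of 0.0228 in edgeR. With all libraries, 6 of 9 tested genes of the gCap list were below 0 with a median of -0.52. Among them 4, all below 0, had an unadjusted p under 0.05 in edgeR, against 5.05% of all genes. The list includes Clec1a, which was above 0 although its level was higher in aCap barcodes. It averaged 1046 CPM in aCap and 728 CPM in gCap barcodes of Smad4iko, and 922 and 643 CPM in those of Smad4fl/fl. Ptprb, the vascular endothelial phosphatase, was at 25.9, 30.6, 0 and 34.3 CPM in Smad4iko 1 to 4, against 217, 67.9 and 48.2 CPM in Smad4fl/fl 1 to 3. Plvap was at 18.5, 11.5, 13.2 and 4.90 CPM in Smad4iko 1 to 4, against 120, 34.0 and 45.2 CPM in Smad4fl/fl 1 to 3. These levels are small beside the 1635 and 1642 CPM that Plvap averaged in gCap barcodes of Smad4iko and Smad4fl/fl. Smad4fl/fl 1, where 44 of 225 aCap barcodes held a Plvap UMI, also had the most gCap barcodes, 634 of the 1180. With the Gpihbp1 limit left off the median of the list was -0.012 and 5 of 9 were below 0. Without Smad4fl/fl 1 the median was -0.35 with 8 of 9 below 0. In that fit 3 had an unadjusted p under 0.05 in edgeR, against 8.02% of all genes. Without predicted doublets the median was -0.50 with 4 of 7 below 0. There 3 had an unadjusted p under 0.05 in edgeR, against 10.2% of all genes. The part that mixed or doublet barcodes have in these values was not tested; Scrublet predicted 4 of the 636 as doublets.

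RNA of blood cells was present as well. The 6 erythroid markers together were at 5735, 68.8, 8889 and 1958 CPM in Smad4iko 1 to 4, against 40.3, 11.3 and 51.2 CPM in Smad4fl/fl 1 to 3, without overlap. Hbb-bs, a beta globin, had 3050 UMIs in Smad4iko and 17 in Smad4fl/fl aCap barcodes, of which 1 barcode of Smad4iko 1 held 1596. In Smad4iko 3 it was seen in 63 of 66 barcodes and in Smad4iko 4 in 66 of 88. All other kept barcodes had 278, 289, 4042 and 2097 CPM of Hbb-bs in Smad4iko 1 to 4, against 40.9, 60.6 and 61.5 CPM in Smad4fl/fl 1 to 3. Its log2 difference in aCap barcodes was 7.68 ± 1.30 (SE) with an adjusted p of 0.122 in edgeR.

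The neutrophil gene S100a8 was seen in 24.8%, 66.0%, 31.8% and 19.3% of aCap barcodes of Smad4iko 1 to 4, against 1.33%, 4.17% and 12.7% in Smad4fl/fl 1 to 3. Barcodes gated as T cells, which do not make it, had it at 28.3%, 57.8%, 34.6% and 22.5% in Smad4iko 1 to 4. Their shares were 1.43%, 4.81% and 12.0% in Smad4fl/fl 1 to 3. Whether the S100a8 UMIs of aCap barcodes are background RNA was not tested. In Smad4fl/fl 3, 1 aCap barcode held 241 of 247 S100a8 UMIs. The 9 neutrophil markers summed to 184 to 814 CPM in Smad4iko and 34.0 to 1836 CPM in Smad4fl/fl, with Ly6g at 0. Fibroblast markers stood out in Smad4iko 1, at 3243 CPM with 40.5% from 1 barcode, against 4.39 to 7.64 CPM in Smad4iko 2 to 4 and 230.1 to 653 CPM in Smad4fl/fl 1 to 3. The 32 calls without Smad4iko 1 included the fibroblast and matrix genes Bgn, Inmt, Ogn, Gsn and Mgp. The summed markers of the other 11 cell types overlapped between the groups, and the venous markers Ackr1 and Selp had no UMI.

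No gene's genotype difference was shown to differ between aerocytes and general capillary cells. Of 5309 genes tested by limma on the within-library difference of log2 CPM, 0 passed the adjusted threshold (0.0%) and 368 had an unadjusted p under 0.05 (6.93%); without Smad4iko 1 there was 1 call, Tns1. Il4ra had a log2 difference of 0.78 ± 0.20 (SE) in aCap and 0.02 ± 0.19 (SE) in gCap barcodes, and the test of that difference gave 0.73 ± 0.27 (SE) with an adjusted p of 0.699 in limma. Slc12a2 had 0.70 ± 0.17 (SE) in aCap and -0.27 ± 0.30 (SE) in gCap barcodes, with an adjusted p of 0.717 for the difference in limma. Hspb1 had -1.47 ± 0.31 (SE) in aCap and -1.26 ± 0.59 (SE) in gCap barcodes, and a difference of 0.02 ± 0.45 (SE) in limma, whose log2 CPM values weigh libraries and low levels otherwise than edgeR does.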

How the data were processed

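Lung cells of 7 mice were profiled by 10x 3' single-cell sequencing with 150 bp paired-end reads, per the labels. The authors deposited raw counts of UMIs per gene and barcode, written by Cell Ranger 6.1.1 per the file headers; the submitters' processing notes also name fastp, UMI-tools and mm10, without saying which step each served. Every deposited barcode had at least 500 UMIs. Gene coordinates come from GENCODE M21, matched by ID for 31107 of 31253 features.

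The gate was applied to the deposited counts, UMIs were summed per library, and genotype was tested with edgeR 4.0.16 (filterByExpr, TMM, no covariate) in R 4.3.3; the aCap minus gCap difference used limma 3.58.1 on log2 CPM with a prior count of 2. Shares were compared by exact permutation over 35 splits. Alternatives used DESeq2 1.42.0, Scrublet (scanpy 1.11.5; expected rate 6%) for doublets, which were kept otherwise, and other gates, filters and covariates. Genes on named lists are the 4 most abundant tested members and any called; without 20 calls, the 10 smallest p in each direction with no overlap and average log2 CPM of at least 5 were added. Members, lists and tests were chosen with earlier results of these data known. Libraries of a group differed by more than sampling noise (chi-square per gene 2.06 to 4.86). The labels give 7 separate mouse samples. Scripts were tested on simulated data. Results of 2 listed genes are not reported here.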

Additional observations from a re-analysis of the deposited data

Results flagged for a closer look

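Each value here came from 1 Smad4iko library that lay far from the other 3 by a gap test on 4 values (gap over range above 0.829), run on 107 sets of values; chance alone flags about 1 in 20, and 10 were flagged. Groups of 3 were not tested, so Smad4fl/fl has none.

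Smad4iko 3 had an aCap share of endothelial barcodes of 19.1%, below the 21.1% to 21.4% of the others. It also held the highest Smad4iko level of 7 genes. Smad6 was at 741 CPM, against 413 to 455 CPM in the other Smad4iko libraries. Hes1, a Notch target, was at 561 CPM, against 287 to 323 CPM. Bmp6 was at 114 CPM, against 34.4 to 46.6 CPM. Tnfrsf1a was at 268 CPM, against 178 to 189 CPM. The MHC class II genes were high together in that library, with Cd74 at 228 CPM, H2-Aa at 114 CPM and H2-Eb1 at 92.1 CPM, and 1 barcode held 57.7% of its Cd74 UMIs. In Smad4iko 4, Paqr7 was at 321 CPM, against 202 to 215 CPM, and Bax was at 353 CPM, against 233 to 250.0 CPM.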

How the results depend on the processing

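The aCap gene count of 1 was kept, within 1.5 times, under the stricter cell filter, without predicted doublets, with Ptprc at 0, thinned to 2000 UMIs, from Smad4iko 1 and 2 alone, with RLE size factors and with the Gpihbp1 limit left off (chosen after seeing the data); the call was Hebp1 in these except Hbb-bs when thinned, where Hebp1 was not tested, and Ifi27l2a from Smad4iko 1 and 2. It was 0 without the Car4 minimum (edgeR), 2 with a covariate for Smad4iko 3 and 4, 8 with a sex covariate, 4 by DESeq2 and 121 with no filter on low counts. Leaving out 1 library gave 1 to 32 calls. The cause was not tested. The count for aCap minus gCap was 0 under every alternative run except leaving out a library, which gave 0 to 1.

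Same-numbered mice did not deviate together (correlations 0.198, 0.045 and 0.068), and the labels do not say that a number marks a pair; with the replicate block 5 genes were called (4 higher, 1 lower), and the aCap minus gCap count was 0.

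The aCap share of kept barcodes was 0.304 percentage points lower in Smad4iko (-0.304) and reversed to 0.387 without Smad4fl/fl 1 and to 1.63 with no Ptprc UMI in members or denominator (added after seeing the data); leaving out 1 library gave -0.674 to 0.387. The aCap share of endothelial barcodes and the aCap share of capillary barcodes kept their direction in all alternatives run, at 0.567 to 11.3 and 0.245 to 22.3 percentage points when 1 library was left out. With 4 against 2 libraries the exact test cannot give a p below 0.0667. Of 2027 values of 103 named genes under alternatives, 45 passed newly, 2 no longer passed, and 123 had another sign without passing; among the 20 genes named by smallest p this was 1, Cd93 with the Gpihbp1 limit left off. With 48 to 225 aCap barcodes per library, genes of few UMIs were not tested, and 5543 genes were.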
